A study of Mus musculus with 14 samples.

Results

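The genes described here are 10 genes through which granule neuron progenitors of the cerebellum respond to Sonic hedgehog and divide. They are the transcription factor gene Atoh1, the Myc family genes Mycn and Myc, the Hedgehog transcription factor genes Gli1, Gli2 and Gli3, the Hedgehog target and antagonist genes Ptch1 and Hhip, and the D-type cyclin genes Ccnd1 and Ccnd2. They were taken as a named list of 10 of the 21938 protein-coding genes of the annotation. For each gene, the percent of the DNA within 3 kb of its transcription start sites (TSS), and of the 50 kb beyond on each side, that lay under peaks of the histone mark H3K27me3 was taken in every library. The question was which of these genes carried the mark, when, and which of them gained it after postnatal day 7 (P7).

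H3K27me3 peaks came from ChIP-seq (chromatin immunoprecipitation followed by sequencing) on cerebellum of C57BL/6NCrl mice of both sexes, with no transgene or treatment named, at P7, P14 and P60, with 3 libraries per stage. A P7 library pooled more mice than a P14 library, and a P60 library came from a single mouse, so pool size changed with age. In a second experiment of the series (2 Kdm6b-WT and 3 Kdm6b-cKO libraries, Atoh1-Cre driving the deletion), peak positions did not follow the genome build named for them, and these lists were not used. The tissue is whole cerebellum, so fewer cells carrying the mark and less mark per cell cannot be told apart.

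In the developing cerebellum, Purkinje cells secrete Sonic hedgehog, which binds the receptor Patched (Ptch1) on granule neuron progenitors and thereby releases the transducer Smoothened. Gli proteins then carry the signal to the nucleus: Gli1 and Gli2 act mainly as activators, and Gli3 is cut to a repressor when the ligand is absent. Among the targets are Gli1, Ptch1 and Hhip, which feed back on the pathway, and Mycn, Ccnd1 and Ccnd2, which drive the cell cycle. Progenitors stop dividing in the first postnatal weeks and become granule neurons. H3K27me3 is the mark that Polycomb repressive complexes place at silenced genes, mostly over CpG-rich DNA.

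The 9 lists differed in size and shape, which sets the coverage of every gene. They held 8840 to 15388 peaks at P7, 9475 to 12572 at P14 and 6905 to 15600 at P60. Peaks of P60 replicates 1 and 2 were narrow, with median widths of 134 and 149 bp, against 410 bp in P60 replicate 3 and 485 to 751 bp at P7. P14 replicate 1 had a median width of 269 bp, against 454 and 580 bp in the other P14 libraries, and in all 9 members with any coverage it had the lowest value of its stage. The mean coverage of the most covered TSS window over all genes was 3.13% to 5.70% at P7, 1.26% to 3.31% at P14 and 0.345% to 1.34% at P60. Read depths are unknown. The part of these differences in the results below was not tested beyond the values given with them. The mark does not read expression, so the tissue label could not be checked directly. A list of 8 cerebellar identity genes (such as En1, En2 and Barhl1) had a mean coverage of 2.29% to 9.83% at P7 and of 0% in all 3 libraries at P60. A list of 8 forebrain genes had 23.0% to 34.7% at P7 and 0.179% to 2.48% at P60, so both lists were lower at P60.

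Across all 10 members, mean TSS window coverage was 15.3% to 27.6% at P7, 9.30% to 28.3% at P14 and 1.71% to 10.1% at P60, in every library above the mean over all genes. A peak lay in a TSS window of 8, 7 and 5 members in the P7 libraries, of 9 members in each P14 library, and of 6, 5 and 6 members in the P60 libraries. Over all genes the share was 23.8%, 18.4% and 16.0% in P7 replicates 1 to 3. It was 12.1%, 16.5% and 17.5% at P14, and 8.80%, 7.05% and 11.1% at P60. The timing differed between genes: Mycn had no peak at P7 and peaks in all later libraries, Gli3, Ccnd1 and Ccnd2 were most broadly covered at P7 or P14 and little at P60, and Ptch1 had no peak at any TSS at any stage.

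**Figure D1:**
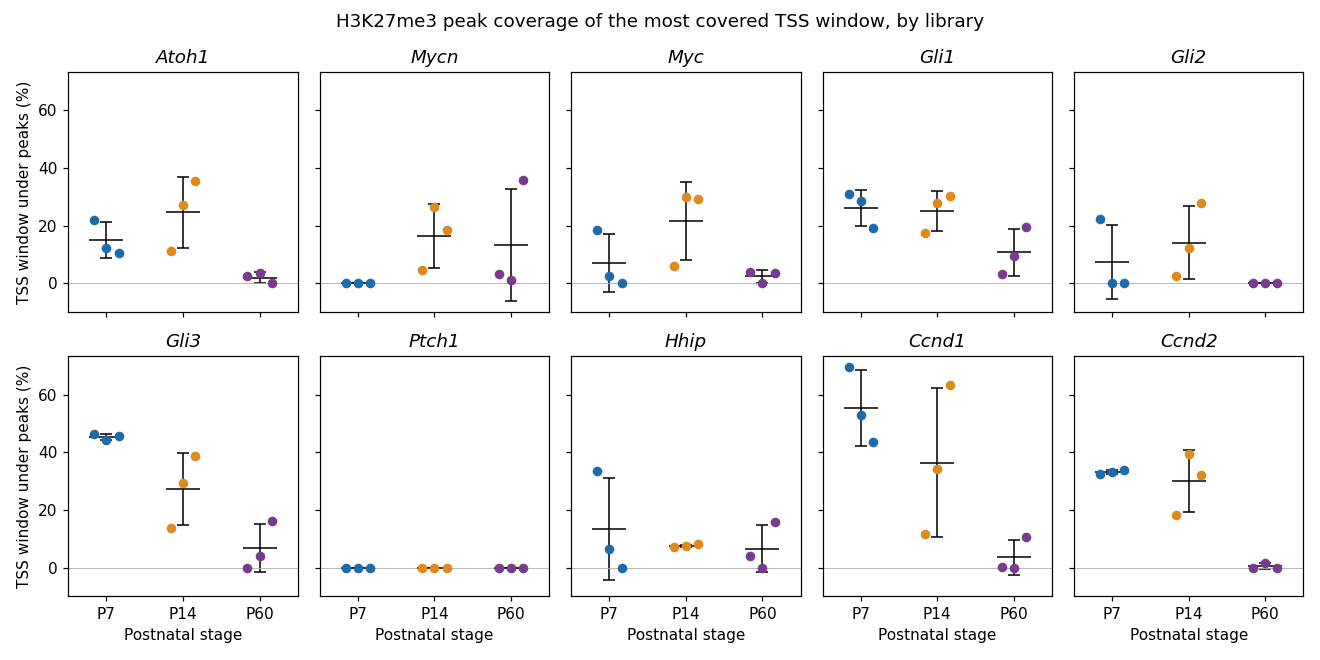
Each panel shows 1 member, with the percent of its most covered TSS window (3 kb on each side of a start site) under H3K27me3 peaks in each of the 3 libraries at P7, P14 and P60 (points, replicates 1 to 3 from left to right), and the mean with its SD (bars). Mycn is at 0 in all P7 libraries and above 0 in all later ones, Ptch1 is at 0 in all 9, and Ccnd2 falls from 32.6% to 33.9% at P7 to 0% to 1.55% at P60.

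Mycn encodes N-Myc, the Myc family protein that Sonic hedgehog induces in granule neuron progenitors and that drives their division. The gene lies at chr12:12936093-12941914 on the minus strand (mm10, the GRCm38 build) and has 3 annotated TSS. Its TSS window coverage was 0% in all 3 P7 libraries. It was 4.63%, 26.5% and 18.4% in P14 replicates 1 to 3, and 3.38%, 1.02% and 35.9% in P60 replicates 1 to 3. The P7 values therefore did not overlap with those of any later library, and within P60 a single library, replicate 3, had most of the covered sequence. By library count, a gene gained its peak between 2 stages if no library of the earlier and at least 2 of 3 libraries of the later stage had a peak in any TSS window. Mycn was the only member gained from P7 to P14, where 1.02% of all genes were gained, and the only member gained from P7 to P60, where 0.916% were. Where a peak had to cover 10% of the window, Mycn was still gained from P7 to P14 (0.397% of all genes) but not from P7 to P60 (0.0547%). With an equal number of peaks in every list, Myc was gained besides Mycn from P7 to P14 (0.966% of all genes). From P14 to P60 none of the 10 members and 0.647% of all genes were gained. Peaks in no P7 library and in all 6 later ones were found at 14 of the 21938 genes, 0.0638%, and Mycn was among them.

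All Mycn peaks merged into a single region, chr12:12938598-12941176 (2579 bp), which began 738 bp downstream of the 5′ end and covered coding and untranslated sequence. No peak touched the 5′ end itself, whereas the TSS 1298 bp downstream of it lay under the peaks of P14 replicates 2 and 3 and P60 replicate 3, and the 50 kb on each side held no peak in any library. The peaks were 278, 1588 and 1106 bp wide in P14 replicates 1 to 3. In P60 replicate 1 there were 2 narrow peaks of 132 and 71 bp, in P60 replicate 2 there was 1 of 61 bp, and in P60 replicate 3 there was 1 of 2152 bp. The later peaks thus fell in the same merged region but differed in width and position, and the peak of P60 replicate 2 overlapped with no P14 peak. A stretch of 71 bp within the coding sequence, chr12:12940149-12940219, lay under peaks in the most libraries, 5 of 6 after P7 (all but P60 replicate 2) and none at P7. It is shown because it is the sequence that gained peaks of the most libraries share, read 5′ to 3′ on the gene strand with CpG dinucleotides in capitals.
Mycn: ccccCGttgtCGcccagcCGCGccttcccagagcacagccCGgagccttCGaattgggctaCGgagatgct

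That stretch held 7 CpG, or 98.6 per kb. The whole 6 kb window around the 5′ end of Mycn held 39.8 CpG per kb, more than 96.0% of 21919 genes (median 18.0 per kb). Genes covered in 2 or more libraries had a median of 22.5 per kb and genes covered in none had 16.5.

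The Mycn peaks were near the middle of their lists by −log10 q at P14 and lower in their lists at P60. Their −log10 q was 2.32, 3.25 and 2.42 at P14, which was above 52.0%, 69.2% and 51.9% of the peaks of the same library. At P60 it was 1.33 to 1.76, above 18.0% to 40.9% of the peaks of each list. By fold enrichment they stood above 30.7% to 45.1% of peaks at P14 and 7.47% to 12.5% at P60. When peaks under a −log10 q of 2 were dropped, which equals the false discovery rate stated for the peak calling, Mycn kept its peak in all 3 P14 libraries and in no P60 library, and with a minimum of 4 it had none in any library. By limma over all genes tested, Mycn coverage was 16.5 percentage points higher at P14 than at P7 (SE 8.51, adjusted p = 0.206) and 13.4 points higher at P60 than at P7 (SE 8.51, adjusted p = 0.209), and neither passed the threshold of 0.05. The exact permutation test over the 3 stages gave p = 0.329 for this gene (n = 3 per stage, two-sided, unadjusted), where 0.00357 is the smallest p the design allows. The gain of Mycn is therefore a result of presence and absence over libraries and not of the mean coverage.

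The 5 genes whose coverage over the 9 libraries was most like that of Mycn were Fnbp1l (Pearson r = 0.986), Arhgap28 (0.972), B3gnt5 (0.965), Slc38a11 (0.960) and Tmem82 (0.955). These points share the libraries and their peak widths. B3gnt5, which encodes a glycosyltransferase of glycosphingolipid synthesis, also shared the presence pattern, with no peak at P7, 4.50%, 17.3% and 22.4% at P14, and 5.0%, 0.950% and 30.9% at P60. Among the other 12 genes with that pattern were Col6a3, Fmo4, Vav2, Ier5l, Gng5, Cachd1, E2f2, Dffb, Rab34, Sntg2 and Fbln1. Of these, E2f2, an activator of S-phase genes, stood on the list of other division genes described further on.

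Myc, which encodes c-Myc, lies at chr15:61985391-61990374 on the plus strand and has 6 TSS. Its TSS window coverage was 18.4%, 2.5% and 0% in the P7 libraries, 6.07%, 29.8% and 29.2% in the P14 libraries and 3.95%, 0% and 3.45% in the P60 libraries. Coverage was thus highest in P14 replicates 2 and 3, while P7 and P60 overlapped. The difference from P7 to P14 was 14.7 points (SE 6.89, limma adjusted p = 0.173), and that from P14 to P60 was −19.2 points (SE 6.89, adjusted p = 0.117). Without P14 replicate 1, and with lists trimmed to an equal number of peaks, the first of these passed the threshold. At P7 and P14 the peak nearest the 5′ end began 322 to 1051 bp downstream of it, and in P60 replicates 1 and 3 it began 1405 and 1847 bp downstream. The 117 bp at chr15:61986442-61986558, in an intron, lay under peaks in 2 P7 and 3 P14 libraries and no P60 library. It is shown beside the Mycn stretch because the genes are paralogs, again on the gene strand with CpG in capitals.
Myc: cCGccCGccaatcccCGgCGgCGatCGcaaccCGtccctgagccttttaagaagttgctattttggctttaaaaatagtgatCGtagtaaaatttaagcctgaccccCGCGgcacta

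It held 10 CpG, or 85.5 per kb. A separate region 48779 bp beyond the last TSS of Myc, chr15:62036201-62037385, had peaks of 615, 128 and 1131 bp in the 3 P7 libraries and none at P14 or P60.

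Atoh1 encodes the basic helix-loop-helix factor that defines granule neuron progenitors and is switched off as they leave the cycle. It is a gene with a single exon at chr6:64729125-64731245 on the plus strand. Its TSS window coverage was 22.1%, 12.1% and 10.6% at P7, 11.3%, 27.2% and 35.4% at P14, and 2.43%, 3.65% and 0% at P60. All 6 P7 and P14 values lay above all P60 values, while P7 and P14 overlapped. The coverage changed by 9.72 points from P7 to P14 (SE 6.14, limma adjusted p = 0.297) and by −22.6 points from P14 to P60 (SE 6.14, adjusted p = 0.0639), neither past the threshold, and the exact permutation test over the stages gave p = 0.0429 (n = 3 per stage, unadjusted). Peaks at P7 started 283 to 424 bp inside the gene. In P14 replicates 2 and 3 they reached 432 and 434 bp upstream of the TSS and so took in the promoter. The 553 bp at chr6:64729549-64730101, all coding sequence, lay under peaks in all 6 P7 and P14 libraries. At P60, the peaks of replicates 1 and 2 were only 146 and 219 bp wide and lay at the TSS, outside that stretch. A separate region 5152 bp downstream of the TSS had a peak in P14 replicate 3 and P60 replicates 1 and 3 and in no P7 library.

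**Figure D2:**
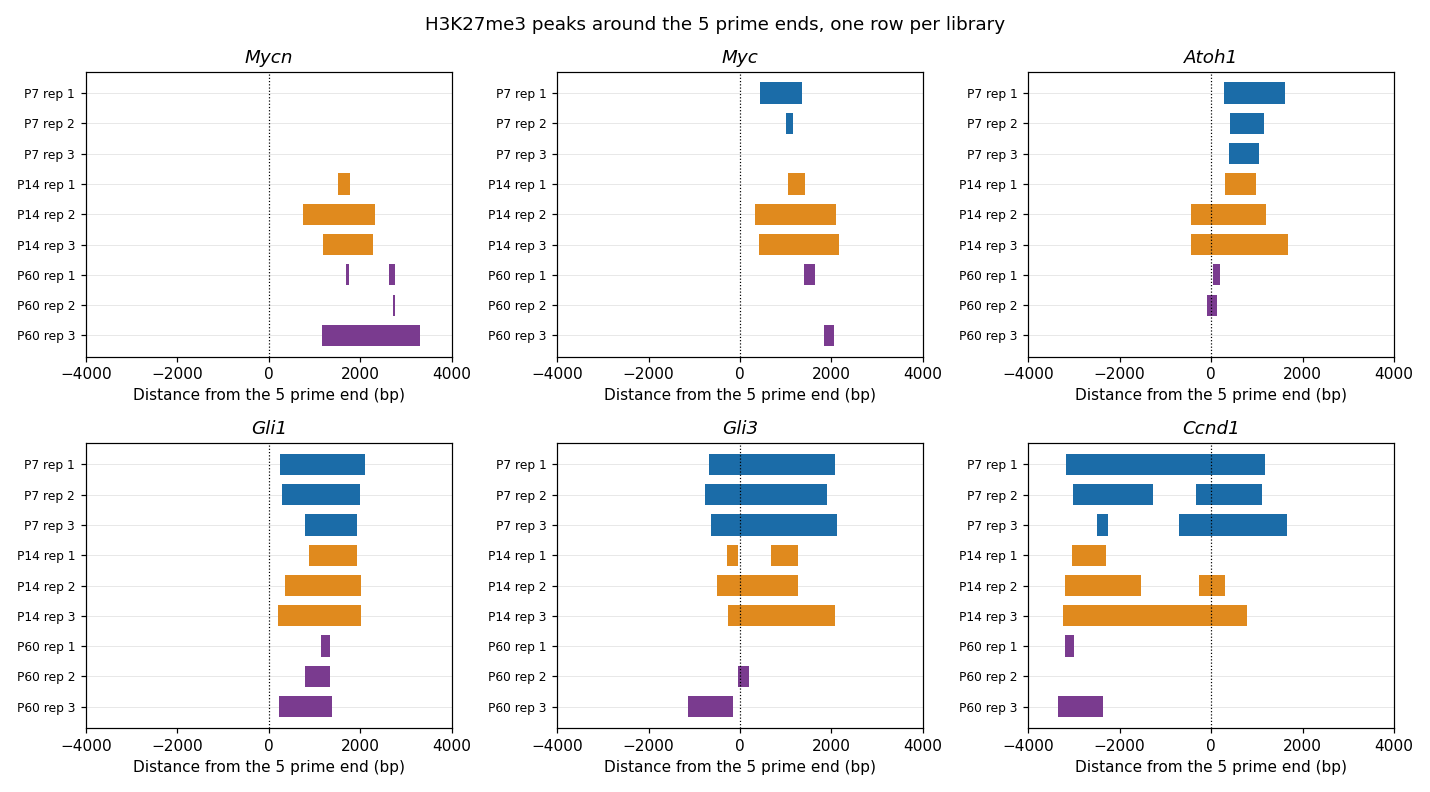
Horizontal bars are H3K27me3 peaks around 6 members, 1 row per library (blue P7, orange P14, purple P60), with distance from the 5′ end in bp on the gene strand (negative values upstream, dotted line at the 5′ end). Mycn has bars only in P14 and P60 rows, Gli1 has a bar in all 9 rows, and the bars of Gli3 and Ccnd1 are widest at P7 and in P14 replicate 3.

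The 3 Gli genes are described in turn, and differences between their courses were not tested. Gli1, a direct target whose level is the usual readout of Hedgehog activity, lies at chr10:127329882-127341974 on the minus strand. Its coverage was 30.9%, 28.6% and 19.2% at P7, 17.4%, 27.9% and 30.3% at P14, and 3.32%, 9.40% and 19.5% at P60. It was the only member with a TSS window peak in all 9 libraries. P7 and P14 overlapped, and P60 replicate 3 reached the range of the earlier stages. The change from P7 to P60 was −15.5 points (SE 6.04, limma adjusted p = 0.0543), just outside the threshold, and after scaling of coverage to the library mean it was 24.1 points (adjusted p = 0.125). The peaks lay between 209 and 2094 bp downstream of the 5′ end, and the 199 bp at chr10:127340628-127340826, in an intron, were shared by all 9. This was the only stretch in the TSS windows of the members marked at every stage in every library, and it is shown on the gene strand with CpG in capitals.
Gli1: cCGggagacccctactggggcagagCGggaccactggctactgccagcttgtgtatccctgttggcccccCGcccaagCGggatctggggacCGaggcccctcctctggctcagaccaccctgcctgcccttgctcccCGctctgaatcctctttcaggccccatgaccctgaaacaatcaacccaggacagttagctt

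It held 6 CpG, or 30.2 per kb, fewer per kb than the shared stretches of Mycn and Myc. In the 50 kb flanks of Gli1, peaks covered 2395, 2301 and 2669 bp at P7, 1232, 760 and 1875 bp at P14, and 396, 0 and 1147 bp at P60. P7 values did not overlap with the others. Most of this was 1 region, chr10:127325543-127327937, 9118 bp from the nearest Gli1 TSS, inside the neighbouring gene Arhgap9.

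Gli3, the source of the main repressor form, lies at chr13:15463235-15730026 on the plus strand. Its coverage was 46.2%, 44.2% and 45.7% at P7, 13.7%, 29.4% and 38.7% at P14, and 0%, 4.17% and 16.2% at P60. The P7 values lay close together and above every later library, and P14 replicate 1 lay below P60 replicate 3. Coverage fell by 38.6 points from P7 to P60 (SE 7.16, limma adjusted p = 0.00196), with permutation p = 0.00714 over the stages (exact, n = 3 per stage). After scaling to the library mean the change was −9.04 points (adjusted p = 0.453), and with the same covered length in every list it was 6.78 points. At P7 a single peak of 2652 to 2771 bp spanned the 5′ end. At P14 replicate 1 had 2 pieces of 241 and 583 bp, and replicates 2 and 3 had peaks of 1764 and 2321 bp. At P60 the peaks were only 250 bp wide in replicate 2 and 970 bp in replicate 3. The latter reached 1129 bp upstream of the 5′ end, whereas P7 and P14 peaks reached at most 757 bp. The 92 bp at chr13:15462984-15463075, 160 to 251 bp upstream of the 5′ end and within an exon of a non-coding transcript annotated there, lay under peaks in all 6 P7 and P14 libraries and in P60 replicate 3, and are shown as the stretch with the longest presence.
Gli3: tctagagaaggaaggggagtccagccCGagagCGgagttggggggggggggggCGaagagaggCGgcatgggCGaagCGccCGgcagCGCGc

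It held 9 CpG, or 97.8 per kb. A smaller region 21998 bp from the nearest TSS, inside the gene, had peaks of 265 and 445 bp in P7 replicates 1 and 2 only.

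Gli2, the main activator of the pathway, lies at chr1:118834132-119053619 on the minus strand. Its TSS window coverage was 22.2%, 0% and 0% at P7, 2.5%, 12.2% and 27.8% at P14, and 0% in all 3 P60 libraries. It was thus present in all P14 libraries, in 1 at P7 and in none at P60, and by library count it was the only member lost from P14 to P60, where 4.73% of all genes were lost. None of the 10 members was lost from P7 to P14 (3.32% of genes) or from P7 to P60 (8.3%). With an equal number of peaks in every list, no member was lost from P14 to P60 either (2.83% of genes). By limma the differences were 6.74 points from P7 to P14 (SE 7.02, adjusted p = 0.536) and −14.1 points from P14 to P60 (SE 7.02, adjusted p = 0.233). Outside its TSS windows Gli2 showed the widest set of late peaks among the members. Of 13 regions within the windows and flanks of the gene, 12 were absent from all P7 libraries. Flank peaks covered 0 bp in the 3 P7 libraries, 951, 2135 and 2647 bp at P14, and 211, 0 and 1049 bp at P60. All P14 values were above all P7 values, and they overlapped with P60. The change in the flanks from P7 to P14 was 1.16 points (SE 0.310, limma adjusted p = 0.0649), with permutation p = 0.05 over the stages (exact, n = 3 per stage). Of the 13 regions, 6 were found in 1 library only. Only 4 of those absent at P7 were in 2 or more P14 libraries, among them chr1:119047859-119048869, 4750 bp inside the gene, with 875 and 1011 bp in P14 replicates 2 and 3 and 148 bp in P60 replicate 3. Because its TSS lie far apart, the Gli2 flank as measured was 165 kb long.

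**Figure D3:**
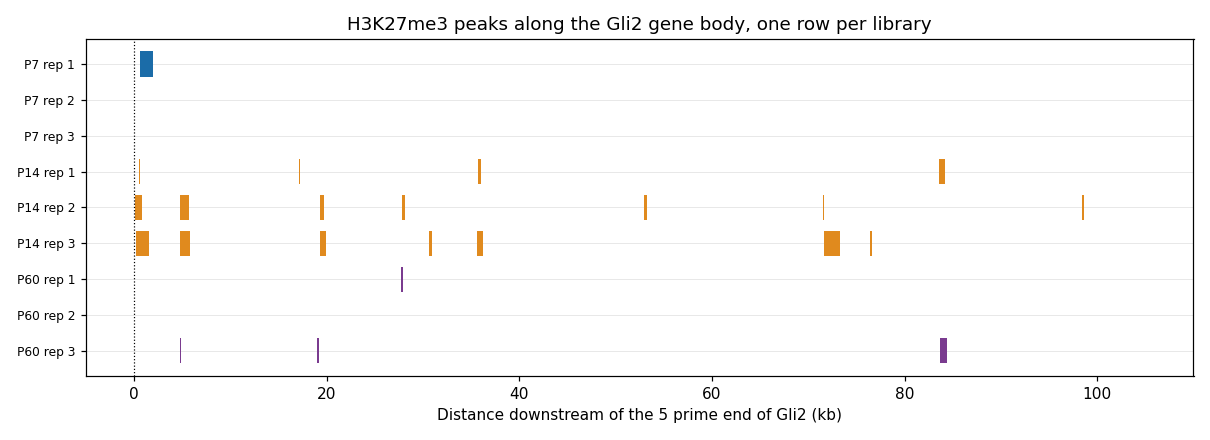
Horizontal bars are H3K27me3 peaks along Gli2, 1 row per library (blue P7, orange P14, purple P60), with distance downstream of the 5′ end in kb (dotted line at 0). The only P7 bar is the 1332 bp peak of replicate 1 next to the 5′ end, whereas P14 rows hold bars spread over the gene body, and P60 rows hold few.

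Ptch1 and Hhip encode membrane proteins that limit the signal, the receptor itself and a decoy that binds the ligand. Ptch1 lies at chr13:63508328-63573598 on the minus strand and has 10 annotated TSS. None of its 10 TSS windows held a peak in any of the 9 libraries. It was therefore left out of the limma fit, which took genes covered in 2 or more libraries. In its flanks there was 1 peak of 175 bp, in P7 replicate 3, and 1 of 206 bp, in P14 replicate 2, each in a single library. Without read depths this says that no peak was called, not that the mark is absent. The promoter listed for Ptch1 in RefSeq (GRCm38.p6), chr13:63565736-63565985, lies in an intron, at a TSS 7863 bp downstream of the 5′ end. It holds 41 CpG in its 250 bases against a median of 6 over all 32851 promoters listed there. The 6 kb window around the 5′ end of Ptch1 held 25.5 CpG per kb, more than 75.3% of genes. The listed promoters of Mycn, Gli2 and Hhip also lay under no peak in any library. That of Ptch1 is shown as a CpG-rich stretch without a peak. CpG are in capitals, on the gene strand.
Ptch1: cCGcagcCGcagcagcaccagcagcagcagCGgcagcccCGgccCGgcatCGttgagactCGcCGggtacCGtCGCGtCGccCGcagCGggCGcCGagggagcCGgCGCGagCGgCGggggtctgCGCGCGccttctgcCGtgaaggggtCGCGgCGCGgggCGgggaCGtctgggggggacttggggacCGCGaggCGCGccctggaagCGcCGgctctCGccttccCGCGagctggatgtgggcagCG

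Hhip, at chr8:79965851-80058006 on the minus strand, had a coverage of 33.5%, 6.47% and 0% at P7, 7.22%, 7.43% and 8.03% at P14, and 3.97%, 0% and 15.7% at P60. All stages overlapped, the P7 libraries spanned the whole range, and no change passed the threshold (from P7 to P60 −6.77 points, SE 7.60, limma adjusted p = 0.478). All its peaks lay in 1 region, 394 to 2520 bp downstream of the 5′ end, and the flanks held none. Of the P14 peaks, of 99 to 482 bp, those of replicate 1 overlapped with the peak of replicate 2 and with that of replicate 3, and no base was shared by all 3 libraries.

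In the P7 means, Ccnd1 had the broadest coverage of all members, then Gli3 and then Ccnd2, and in P7 replicate 3 Gli3 stood above Ccnd1. Ccnd1 encodes cyclin D1, which binds Cdk4 and Cdk6 to start the cell cycle, and lies at chr7:144929931-144939925 on the minus strand. Its coverage was 69.6%, 52.9% and 43.6% at P7, 11.8%, 34.2% and 63.1% at P14, and 0.1%, 0% and 10.6% at P60. At P7 it was above 99.3% to 99.9% of all genes. Every P60 value lay below every earlier one, while P7 and P14 overlapped. Coverage fell by 51.8 points from P7 to P60 (SE 11.6, limma adjusted p = 0.00465, exact permutation p = 0.0321 over the stages, n = 3 per stage). After scaling to the library mean it fell by 26.7 points (adjusted p = 0.0362), and with the same covered length in every list, where the gene had no peak left before P60, the change was 3.55 points. The peaks spread from 3351 bp upstream to 1668 bp downstream of the 5′ end. The downstream part was covered in all P7 libraries and in P14 replicates 2 and 3 and in no P60 library, and at P60 only upstream peaks of 198 and 985 bp were called, in replicates 1 and 3. The 138 bp at chr7:144942292-144942429, 2367 to 2504 bp upstream, lay under peaks in all P7 and P14 libraries and in P60 replicate 3, and are shown for that reason on the gene strand with CpG in capitals.
Ccnd1: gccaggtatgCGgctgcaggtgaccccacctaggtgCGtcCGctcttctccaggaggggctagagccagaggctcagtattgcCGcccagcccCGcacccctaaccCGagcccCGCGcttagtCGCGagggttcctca

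Ccnd2, which encodes cyclin D2, the D-type cyclin most typical of granule neuron progenitors, lies at chr6:127125162-127152193 on the minus strand. Its coverage was 32.6%, 33.1% and 33.9% at P7, 18.3%, 39.4% and 32.1% at P14, and 0%, 1.55% and 0% at P60. All 6 earlier libraries lay above all P60 libraries. Coverage fell by 32.7 points from P7 to P60 (SE 5.70, limma adjusted p = 0.00155) and by 29.4 points from P14 to P60 (SE 5.70, adjusted p = 0.0381), with permutation p = 0.025 over the stages (exact, n = 3 per stage). After scaling, the changes were −17.4 points (adjusted p = 0.0559) and −27.5 points (adjusted p = 0.0235), and with the same covered length they were 0.52 and −1.04 points. With windows of 1 kb on each side, which leave out most of its upstream peaks, the change from P7 to P60 was −0.62 points (adjusted p = 0.941). Unlike the other members, Ccnd2 had all its TSS window peaks upstream of the gene, in the region chr6:127152740-127155999, which ended 547 bp short of the 5′ end. At P7 the 3 peaks were 2721, 2795 and 2827 bp wide and nearly congruent. A flank region inside the gene, chr6:127134014-127134476, had peaks in 1 P7 library, no P14 library and 2 P60 libraries. In the TSS windows the only P60 peak, in replicate 2, was the 93 bp at chr6:127153379-127153471, which lay within the peaks of all P7 and P14 libraries. It is shown as the last stretch of those windows to keep a peak.
Ccnd2: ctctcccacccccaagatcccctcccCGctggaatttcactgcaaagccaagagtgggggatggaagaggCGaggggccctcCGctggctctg

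The Ccnd1 and Ccnd2 stretches held 10 and 3 CpG, or 72.5 and 32.3 per kb. The flanks of Ccnd1 held more covered sequence than those of any other member in each P7 and P14 library, with 4574, 3206 and 2746 bp at P7, 1570, 2813 and 3158 bp at P14 and 379, 57 and 1154 bp at P60. The P60 values lay below all earlier ones. Nearly all of it lay at or near Fgf15, a fibroblast growth factor gene, whose region 40071 bp from the nearest Ccnd1 TSS, chr7:144895000-144898126, was covered in all 9 libraries.

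Over the stages, 0 of 9 members tested fell and 0 rose from P7 to P14 by limma, against 11.7% and 0.352% of the 5120 genes tested. At an unadjusted p under 0.05 there was 1, Gli3, which was lower at P14, and no member rose at an unadjusted p under 0.05 in any of the 3 comparisons. From P14 to P60, 1 of 9 fell (Ccnd2) and 0 rose, against 2.07% and 0% of all genes. That call was lost without P7 replicate 2 or 3, P14 replicate 2 or 3, or P60 replicate 1 or 2 (0 of 9). Without P14 replicate 1, 5 of 9 members and 1107 of 5054 genes fell. From P7 to P60, 3 of the 9 were lower (Ccnd2, Gli3 and Ccnd1) and 0 higher, against 45.8% and 0.605%. The share of members that fell from P7 to P60 was thus near or below the background, and the median change of the members, −12.9 points, stood beside −12.0 points over all genes tested. From P7 to P14 these medians were −1.03 and −5.73 points, and for P14 to P60 the values were −19.2 and −4.86 points. In the flanks of 50 kb, coverage was lower at P60 than at P7 for 2 of 8 members tested, Ccnd1 (−2.98 points, SE 0.705, adjusted p = 0.0144) and Gli1 (−1.94 points, SE 0.466, adjusted p = 0.0150), and higher for 0, against 28.7% and 0.411% of 13147 genes by limma. Both flank calls were lost after scaling to the library mean (Ccnd1 −0.96 points, adjusted p = 0.318, and Gli1 −0.50 points, adjusted p = 0.642), without P60 replicate 1 (adjusted p = 0.0527 and 0.0543) and without P60 replicate 2 (adjusted p = 0.0637 and 0.0718). With the replicate block the flank of Ccnd1 did not pass (adjusted p = 0.0507). Without P60 replicates 1 and 2, which leaves a single P60 library assumed to vary like the other stages, 0 of 9 TSS windows and 0 of 8 flanks passed, with changes in TSS windows of −33.2 points for Ccnd2 (SE 9.01, adjusted p = 0.0879), −29.2 points for Gli3 (SE 10.3, adjusted p = 0.128) and −44.8 points for Ccnd1 (SE 18.2, adjusted p = 0.163). In that fit 0 of 4875 genes passed. After scaling to the library mean, the TSS window of Ccnd1 alone passed from P7 to P60.

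**Figure D4:**
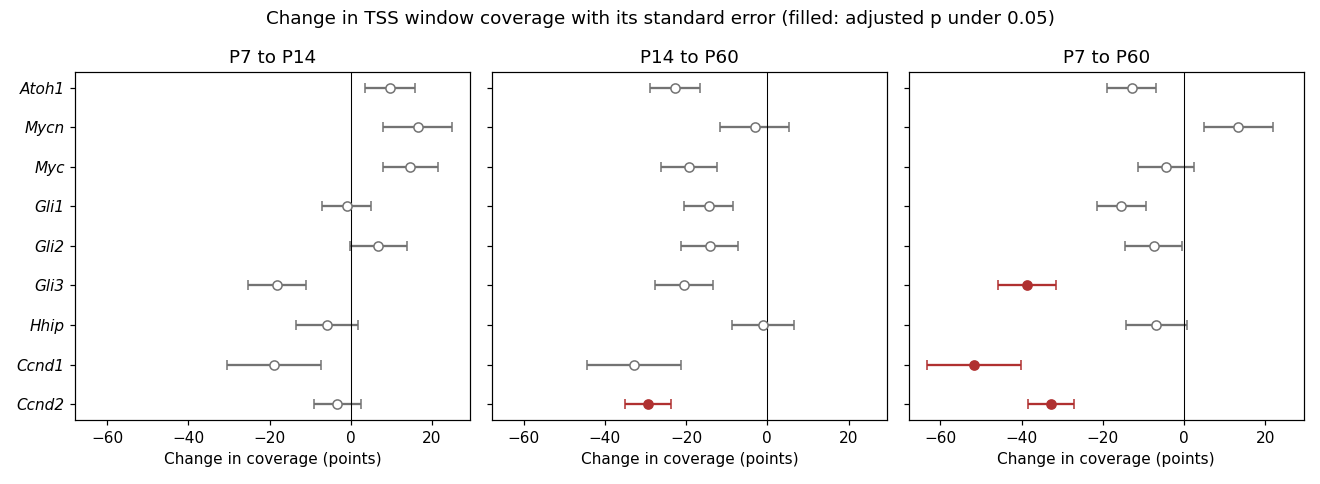
Points are the limma change in TSS window coverage in percentage points (x axis) with its standard error for the 9 members tested, 1 panel per pair of stages, filled where the adjusted p was under 0.05. From P7 to P60 Ccnd1, Ccnd2 and Gli3 are filled on the negative side (with equal covered length in every list their signs turn), Mycn is the only member on the positive side, and no point is filled from P7 to P14.

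Other genes of the Hedgehog pathway, 27 on a separate list, included genes that fell and genes without any peak. By limma, 8 of the 18 tested fell from P7 to P60 and 0 rose, a share near the 45.8% of all genes. They were the ligand genes Ihh (−34.9 points) and Dhh (−35.5 points), the co-receptor gene Cdon (−19.5 points), Scube1 (−33.5 points), Scube2 (−33.2 points) and Scube3 (−37.6 points), which encode secreted proteins of a family that in zebrafish and mouse aids release of the ligand, the endocytic receptor gene Lrp2 (−39.6 points), and Igf2 (−38.0 points), a growth factor gene active in Hedgehog-driven tumors. Shh itself was covered in 2 P7 libraries, 1 P14 library and no P60 library (mean 7.14%, 1.45% and 0%). A further 7 of the 27 had no TSS window peak in any library, against 15211 of 21919 genes: Sufu, Boc, Hhat, Gpr161, Spop, Glis2 and Foxm1. Chosen after their values were seen, Smo, the transducer, and Kif7, a ciliary regulator of Gli proteins, shared with Mycn the absence of peaks at P7. Smo had peaks in 2 P14 libraries and 1 at P60, with means of 9.65% and 0.878%, and Kif7 in 3 and 2, with means of 8.87% and 3.70%. Their limma changes from P7 to P60 did not pass (adjusted p = 0.874 and 0.368).

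Over all genes, 15211 of 21919 had no peak in a TSS window in any library. Of 30 further division and Myc family genes, 26 had none. These were the cyclin genes of the later phases, Cdk1, Cdk2 and Cdk4, the replication licensing genes Mcm2 to Mcm7, Pcna, Top2a, Rb1, E2f1 and E2f3 and the genes of the Max network (Max, Mxd1, Mxd3, Mxi1, Mnt, Mlx and Mga). The 4 with peaks were all tested, and none passed in any comparison by limma. Mycl passed the filter of 2 or more covered libraries only through P14, and E2f2 only through P14 and P60. Unadjusted p-values of these genes are therefore not given. E2f2 had 0% in all P7 libraries and means of 6.49% ± 1.80 (SD, n = 3) at P14 and 4.84% ± 1.74 (SD, n = 3) at P60. Mycl, the third Myc family gene, had 0% at P7, 10.4% ± 6.82 (SD, n = 3) at P14 with a peak in all 3 libraries, and 0% at P60. Set side by side after their values were seen, Mycn, Myc and Mycl had peaks in every P14 library. At P7 peaks were called for Myc alone, in 2 libraries, and at P60 Mycl had none. Peaks in no P7 and all 3 P14 libraries, as at Mycn and Mycl, were found at 0.301% of all genes. No change of these genes passed by limma on all listed peaks and all 9 libraries. Ccnd3, the third D-type cyclin, had 14.3%, 11.4% and 0.733% on average at the 3 stages. Its change from P7 to P60 was −13.5 points (limma adjusted p = 0.101), near the median of −12.0 points over all genes tested. Mki67, which encodes the proliferation marker Ki-67, had means of 1.48%, 6.27% and 10.6% (adjusted p = 0.217 from P7 to P60).

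On a list of 15 other progenitor genes, 2 of 6 tested fell from P7 to P60 by limma, Meis2 (−28.1 points) and Lhx2 (−26.9 points), and 0 rose. The rest of this list was little covered, and 5 of the 15 had no TSS window peak in any library, against 15211 of 21919 genes. Markers of other cell types were read from the same lists, and the mean coverage of each of these 6 lists was lower at P60 than at P7, with overlapping ranges for microglia only. For Purkinje cell genes it was 8.56% to 18.3% at P7 and 0.548% to 1.69% at P60, for the oligodendrocyte lineage 18.4% to 25.9% and 0.472% to 6.36%, for interneurons 15.3% to 32.0% and 0% to 1.29%, and for microglia 1.51% to 3.93% and 0% to 2.52%. For astrocytes and Bergmann glia it was 4.10% to 10.8% and 0% to 1.27%, and for endothelial and mural cells 20.4% to 24.9% and 0.796% to 10.2%. The part of the cell makeup in the members' values was not tested.

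The 9 base GLI consensus GACCACCCA, searched on both strands, was found in the 6 kb window around the 5′ end of 2 members, Ptch1 and Ccnd2, against 4.91% of 21919 genes, and in none of the 6 member promoters matched in RefSeq (Atoh1, Mycn, Gli2, Gli3, Ptch1 and Hhip), against 0.253% of all promoters there. Both matches are shown with the motif in capitals, on the gene strand. That of Ptch1, chr13:63573455-63573484, lay in untranslated sequence 125 bp downstream of the 5′ end and under no peak. That of Ccnd2, chr6:127154397-127154426, lay 2222 bp upstream of the gene, under peaks in all 3 P7 and all 3 P14 libraries and in no P60 library.
Ptch1: atggcgcggcaGACCACCCAcgccgagggc
Ccnd2: tttgattgcctGACCACCCAtttgtccatg

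Over the 10 genes, peaks merged into 36 regions within the windows and flanks, 11 of them in TSS windows. Of these 36, 13 were found in a single library, 18 in no P7 library (12 of them at Gli2) and 2 in all 9 libraries, the Gli1 intron and the Fgf15 region. Absent at P7 and present in 2 or more P14 libraries were 5 regions, that of Mycn and 4 at Gli2. Absent at P7 and present in 2 or more P60 libraries were 2, that of Mycn and the one downstream of Atoh1. In the opposite direction, 2 regions with peaks in 2 or more P7 libraries had none at P60, the distal one at Myc and the one inside Gli3. The window of Mycn was the only region of the 36 with peaks in every later library and none at P7. Regions were not counted in this way around other genes, so these counts have no background. Flank length differed between members, from 100 kb to 165 kb at Gli2.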

How the data were processed

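H3K27me3 ChIP-seq peak lists of 14 cerebellum libraries were read, 1 list per library, and the 9 lists of the P7, P14 and P60 stages were used. Per the labels, fixation was with formaldehyde, shearing by sonication and sequencing of single ends. The submitters' processing notes name FastQC, Trimmomatic 0.38, STAR 2.7.2b, MACS2 2.1, bedtools 2.25.0, DESeq2 1.36.0 and the build mm10. The deposited lists hold, for each broad peak called by the authors, a fold enrichment (a ratio to local background), a −log10 p, a −log10 q and a score of 10 times −log10 q. The study's methods state a false discovery rate that equals a −log10 q of 2, but the deposited lists held peaks down to about 1.00. All listed peaks were used, and the minimum of 2 was an alternative. Such values depend on the library and served only to filter or rank peaks. Sequencing depth and any input library are not given in the sources used here. No counting interval was therefore computed.

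Coverage was measured on the TSS window with most sequence under peaks (3 kb on each side of every TSS of 21938 protein-coding genes, GENCODE vM21), as the percent of it under merged peaks, and likewise on the 50 kb on each side of the outermost windows. The most covered window could differ between libraries. Stages were compared with limma 3.58.1 (trend and robust variance, all 9 libraries in 1 fit, no block) over genes covered in 2 or more libraries, and calls were made at an adjusted p (Benjamini-Hochberg) under 0.05. The peak lists hold no read counts, so the count model of the study could not be fitted. The fit was tested on simulated data. Single genes were also tested by a two-sided exact permutation test over all 1680 arrangements (between-stage sum of squares). The libraries are separate samples per the series record, and p-values measure the spread between them. Changes are in percentage points.

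The 5 lists of the knockout experiment were not analysed for these genes. Of their peaks of 1 kb or more, 6.50% to 7.59% lay over a TSS of this annotation and 5.31% to 6.93% after a shift of 50 kb, against 11.9% to 50.5% and 1.14% to 7.85% in the stage lists, so their positions did not follow GRCm38. Positions were not converted. Some genes are not reported here.

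The members and gene lists were chosen with earlier results of these data known. All members are named; of the pathway, division and progenitor lists the genes called from P7 to P60; and the 5 genes most like a member gained by library count. Sequences were read from the GRCm38.p6 genome and RefSeq promoters. Alternatives were each library left out, a replicate block, stricter peaks, equal peak number or covered length, scaling, other windows, flanks, filters and variance settings. Python 3.11.15, numpy 2.4.6, pandas 2.3.3, matplotlib 3.10.9 and R 4.3.3 were used.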

Additional observations from a re-analysis of the deposited data

How the results depend on the processing

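Ccnd1, Ccnd2 and Gli3 were called lower at P60 than at P7 in each of the 9 fits with 1 library left out. With 1 library left out, the members called fell from P7 to P60 numbered 3 to 5 (5 without P14 replicate 1), those from P14 to P60 0 to 5 (0 without P7 replicate 2 or 3, P14 replicate 2 or 3, or P60 replicate 1 or 2, and 5 without P14 replicate 1), those that rose from P7 to P14 0 to 1 (Myc, without P14 replicate 1), and the flanks that fell 0 to 3 (0 without P60 replicate 1 or 2). From P7 to P60, the TSS windows called fell numbered 0 at −log10 q of 4 or more, 0 at equal covered length, 1 after scaling and 0 without P60 replicates 1 and 2, an alternative added after the data were seen. From P14 to P60 they numbered 0 at −log10 q of 2 or more and of 4 or more, at an equal number of peaks, at equal covered length, with TSS windows merged and without P60 replicates 1 and 2, and 2 with peaks of 300 bp or more and with windows of 1 kb. Over all genes, 277 of 4304 fell from P14 to P60 with peaks of 300 bp or more, and 500 of 4225 with windows of 1 kb. Without P14 replicate 1, 1107 of 5054 genes fell from P14 to P60, 2361 fell from P7 to P60 and 80 rose from P7 to P14. With an equal number of peaks, 2 members rose from P7 to P14 (Atoh1 and Myc), against 22 of 3970 genes. Flanks called fell numbered 0 at −log10 q of 4 or more, after scaling, without a filter and without P60 replicates 1 and 2, and 1 at equal covered length and with 20 kb flanks. Members gained or lost by library count were 2. Mycn was gained from P7 to P14 (1.02% of all genes) and from P7 to P60 (0.916%). Gli2 was lost from P14 to P60 (4.73%). Where a peak had to cover 10 percent of the window, the members gained or lost were 5. Mycn was then gained from P7 to P14 (0.397%) and not from P7 to P60 (0.0547%). Atoh1, Ccnd2, Gli2 and Myc were lost from P14 to P60 (5.43%), and Atoh1 and Ccnd2 also from P7 to P60 (8.64%). With an equal number of peaks the members gained or lost were Myc and Mycn, both gained from P7 to P14 (0.966% of all genes). Mycn was also gained from P7 to P60 (1.01%), and Gli2 was not lost. At −log10 q of 4 or more, Gli3 was gained from P7 to P14 (0.419% of all genes), and Gli1 and Gli3 were lost from P14 to P60 (3.33%). Leaving out 1 library in turn, also added, gave 2 to 3 members (Ccnd2 besides Mycn and Gli2, without P60 replicate 2), with no share over all genes computed. Members with an exact p of 0.05 or less over the stages were 4 (Atoh1, Ccnd1, Ccnd2 and Gli3), 0 at −log10 q of 4 or more, 0 at equal covered length and 2 after scaling. The exact test was run for the members only, so the share of all genes that would pass it is not known. At −log10 q of 4 or more 3 members could be tested and at equal covered length 4. The cause of the other differences was not tested.

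The sign of a change turned in these cases, none of which passed the threshold, in percentage points. After scaling it became 10.8 (Gli1), 2.52 (Hhip) and 10.1 (Ccnd2) from P7 to P14, 15.2 (Mycn), 13.3 (Gli1) and 8.34 (Hhip) from P14 to P60, and 4.55 (Atoh1), 6.50 (Myc), 24.1 (Gli1) and 10.9 (Hhip) from P7 to P60. At equal covered length it became 14.4 (Gli3) and 1.56 (Ccnd2) from P7 to P14, 9.62 (Gli1) and 3.55 (Ccnd1) from P14 to P60, and 9.62 (Gli1), 6.78 (Gli3), 3.55 (Ccnd1) and 0.52 (Ccnd2) from P7 to P60. At −log10 q of 4 or more it became 9.08 (Gli1) and 22.7 (Gli3) from P7 to P14, and with 1 kb windows 6.95 (Ccnd2). With an equal number of peaks it became 3.55 (Hhip) from P7 to P14 and 1.15 (Myc) and 3.09 (Hhip) from P7 to P60. Without P60 replicates 1 and 2 it became 19.4 (Mycn) and 8.17 (Hhip) from P14 to P60 and 2.39 (Hhip) from P7 to P60, and the Ccnd1 flank changed by 0.29 with 20 kb flanks. With 1 library left out, ranges that crossed 0 were −4.55 to 2.85 (Gli1), −0.067 to 14.1 (Gli2), −12.4 to 4.33 (Hhip) and −8.01 to 2.52 (Ccnd2) from P7 to P14, −14.3 to 3.11 (Mycn) and −5.58 to 2.29 (Hhip) from P14 to P60, and −8.01 to 1.22 (Myc) and −13.4 to 3.33 (Hhip) from P7 to P60.

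Over all genes tested, scaling moved the median change from P7 to P60 from −12.0 to −2.53 points and the calls from 2347 fell and 31 rose to 1093 and 275, and at equal covered length they were 250 and 49, at −log10 q of 4 or more 421 and 8, and without P60 replicates 1 and 2 0 and 0. From P14 to P60, where 106 fell and 0 rose, scaling gave 432 and 94, the block 0 and 0, and leaving out 1 library 0 to 1107 that fell. From P7 to P14, where 597 fell and 18 rose, scaling gave 360 and 33, equal covered length 101 and 58, the block 233 and 3, and leaving out 1 library 174 to 978 that fell. In the flanks from P7 to P60, 3773 fell and 54 rose, and after scaling 1314 and 241. The replicate numbers did not pair the libraries (correlations of same-numbered deviations from −0.216 to 0.249), and with the replicate block 3 TSS windows still fell from P7 to P60, 0 from P14 to P60 and 1 flank. The fit of TSS windows without a filter could not be made, because most genes had no variance, and the knockout comparison was not run. Peak lists without reads limit what a missing peak can say.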
